A study of Homo sapiens with 43 samples.

Results

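The proteasome genes were examined in ChIP-seq peak lists from lymphoma cells in which the kinase CDK9 had been drawn to chromatin by a small molecule. Members were the protein-coding genes whose symbol begins PSMA to PSMG followed by a number, which gave 50 of the 20037 protein-coding genes in a RefSeq table of GRCh38.p14. Of these, 48 encode subunits, regulators or assembly factors of the proteasome. The other 2, PSMC3IP (a recombination cofactor named for its binding to PSMC3) and PSME3IP1 (named for its binding to PSME3), match by symbol and are not subunits. A gene was said to have a peak in a list when a peak overlapped a window of 1 kb either side of either gene end by at least 1 bp.

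The proteasome is the protease that degrades ubiquitin-tagged proteins. Its barrel, the 20S core, is made of alpha rings (PSMA genes) around beta rings (PSMB genes), and only some beta subunits cut peptides. The 19S cap feeds the barrel, with a ring of ATPases (PSMC genes) that unfold substrates and non-ATPase subunits (PSMD genes) that bind and strip ubiquitin. PSME genes encode other caps, PSMF1 an inhibitor, and PSMG genes chaperones that help build the core. The genes are expressed in nearly all cells, and lymphoid cells also make an immunoproteasome with the induced subunits PSMB8, PSMB9 and PSMB10.

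CDK-TCIP1 is a bivalent compound that binds CDK9 with one end and the transcription factor BCL6 with the other. CDK9 phosphorylates the tail of RNA polymerase II and allows it to leave the start of a gene. Serine 5 phosphorylation of that tail (Ser5P) lies mainly near starts and serine 2 phosphorylation (Ser2P) towards and past gene ends. SUDHL5 and KARPAS422 are human lines of the diffuse large B cell type of lymphoma. CDK9 was mapped in SUDHL5 with the antibodies ab239364 and CST2316S and in KARPAS422 with CST2316S, after 2 h of 30 nM CDK-TCIP1 or of DMSO, with 2 lists in each group. In SUDHL5, Ser2P and Ser5P (2 lists a group) and total polymerase II (Pol II, 3 lists a group) were mapped after 4 h of DMSO and after 2 h or 4 h of 30 nM CDK-TCIP1. DMSO was at 0.1% in all samples, and the 2 h and 4 h comparisons of these 3 targets share their DMSO lists. The labels do not say whether replicates were separate cultures.

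Lists of 1 group differed in length, which can change how many genes of any kind have a peak. A longer list did not always mark more genes. The first Ser5P DMSO list was longer than the second Ser5P list at 4 h and marked a smaller share of all genes. The lists held 138 to 28951 peaks. CDK9 lists in SUDHL5 were longer after CDK-TCIP1, at 9262 to 11148 peaks against 915 to 3508 with ab239364 and at 9761 to 10005 against 1264 to 1611 with CST2316S. With 2 lists against 2, an exact permutation test cannot give a p below 0.33, and with 3 against 3 not below 0.100. Both of the following lists were short for their group: the first Ser2P list at 2 h, with 6519 peaks against 16170 in the other, and the first Pol II list at 4 h, with 138 peaks against up to 3196. In SUDHL5, 6 of 7 B cell marker genes had a Ser5P peak in all 6 Ser5P lists. The T cell gene CD3E also did, and no other of 4 T cell, 3 myeloid, 3 epithelial and 2 liver marker genes had a Ser5P peak in any list.

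The promoters of 5 members carry the changes described below and are shown first, as the 250 bases before the listed start on the coding strand, from RefSeq GRCh38.p14. PSMA1 (chr11:14520387-14520636, minus strand), PSMC6 (chr14:52706950-52707199, plus strand), PSMB8 (chr6:32844680-32844929, minus strand) and PSMD7 (chr16:74296564-74296813, plus strand) had CDK9 peaks at their starts with CST2316S in SUDHL5 only after CDK-TCIP1. PSMD2 (chr3:184298991-184299240, plus strand) had Ser5P peaks only after CDK-TCIP1. Capitals mark matches, on either strand, to CCAAT (the box that NF-Y binds), to CCGGAA (a core that ETS factors bind) and to GGGCGG (the GC box that SP factors bind). No match to TGACNNNGC (the core of the antioxidant response element), to TATAAA or to the motif of nuclear respiratory factor 1 lay in these 5 sequences.
PSMA1: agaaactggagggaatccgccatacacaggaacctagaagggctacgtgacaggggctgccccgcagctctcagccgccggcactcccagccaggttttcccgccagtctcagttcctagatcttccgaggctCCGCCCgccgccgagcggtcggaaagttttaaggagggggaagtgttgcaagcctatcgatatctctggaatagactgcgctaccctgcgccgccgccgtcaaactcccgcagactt
PSMC6: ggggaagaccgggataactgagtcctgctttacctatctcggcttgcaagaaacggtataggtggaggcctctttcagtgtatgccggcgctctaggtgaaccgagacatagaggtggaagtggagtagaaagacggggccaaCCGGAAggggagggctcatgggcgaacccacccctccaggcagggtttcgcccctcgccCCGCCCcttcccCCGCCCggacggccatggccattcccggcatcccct
PSMB8: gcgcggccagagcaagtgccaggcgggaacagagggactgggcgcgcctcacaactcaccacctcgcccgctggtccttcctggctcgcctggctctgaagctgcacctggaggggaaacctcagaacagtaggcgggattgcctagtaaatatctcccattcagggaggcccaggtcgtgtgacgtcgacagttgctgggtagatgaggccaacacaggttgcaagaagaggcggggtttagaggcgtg
PSMD7: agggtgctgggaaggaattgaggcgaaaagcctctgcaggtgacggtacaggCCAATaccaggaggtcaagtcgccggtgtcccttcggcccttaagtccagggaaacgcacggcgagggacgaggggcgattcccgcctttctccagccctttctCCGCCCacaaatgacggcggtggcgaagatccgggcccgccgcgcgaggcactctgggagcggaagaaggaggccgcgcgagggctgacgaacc
PSMD2: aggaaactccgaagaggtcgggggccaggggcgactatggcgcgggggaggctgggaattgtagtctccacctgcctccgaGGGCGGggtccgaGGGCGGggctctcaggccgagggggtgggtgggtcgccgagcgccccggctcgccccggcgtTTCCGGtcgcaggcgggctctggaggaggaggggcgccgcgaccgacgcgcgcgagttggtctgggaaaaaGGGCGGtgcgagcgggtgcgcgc

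PSMA1 held 1 match, to GGGCGG, PSMC6 held 1 to CCGGAA and 2 to GGGCGG, and PSMD7 held 1 to CCAAT and 1 to GGGCGG. PSMD2 held 3 matches to GGGCGG and 1 to CCGGAA, and PSMB8 held none. A match describes letters and does not show that a factor binds. Promoters were listed for 44 members. CCAAT was in 20 of them (45.5%, against 34.5% of the 15843 genes with a listed promoter), CCGGAA in 16 (36.4% against 19.3%) and GGGCGG in 28 (63.6% against 56.0%). TGACNNNGC was in 11 (25.0% against 11.5%), which included PSMB9, PSMD5, PSMD9, PSME1, PSME2 and PSME4. TATAAA was in 5 (11.4% against 9.23%) and the motif of nuclear respiratory factor 1 in 0 (against 3.36%). The median GC content was 61.6% in members and 62.4% in all listed promoters.

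Proteasome genes were often occupied before treatment. A peak lay at a gene end in at least 1 list for 45 members and in every list for 0. In the DMSO lists, 34 and 29 members (68.0% and 58.0%) had a Ser5P peak and 36 and 30 (72.0% and 60%) a Ser2P peak, against 35.1% and 29.9% of all genes for Ser5P and 40.6% and 30.3% for Ser2P. Pol II peaks were scarce, at 0, 7 and 7 members in the DMSO lists (0, 14% and 14%, against 2.68%, 12.5% and 9.05% of all genes). PSMD14, the deubiquitinase of the 19S cap, had a peak in 26 of the 33 lists, PSMD7 in 23, and PSMB8 and PSME3 in 22 each.

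**Figure D1:**
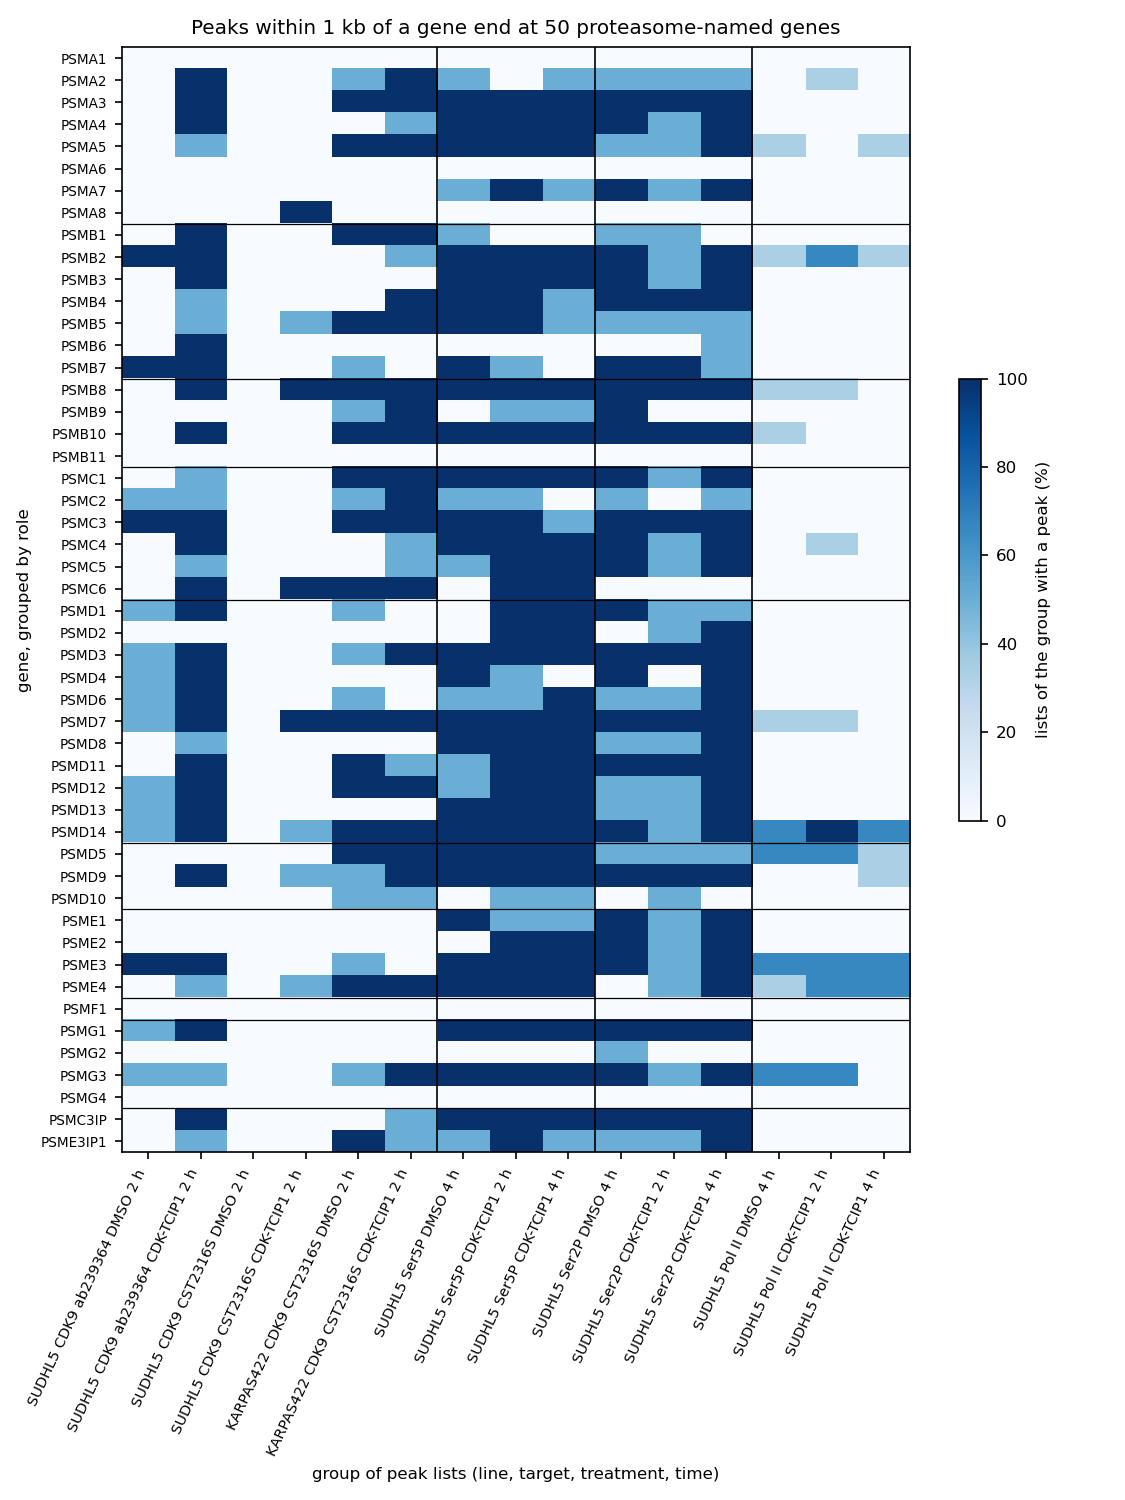
Each row is one of the 50 genes, grouped by role in the order alpha subunits, beta subunits, induced or tissue-specific beta subunits, ATPases, non-ATPase 19S subunits, 19S chaperones, activators, inhibitor, 20S chaperones and the 2 genes that are not subunits. Each column is one of 15 groups, and colour gives the percentage of the group's lists (2, or 3 for Pol II) with a peak within 1 kb of a gene end. With CDK9 ab239364, 5 and 14 of the rows had a peak in the DMSO lists and 31 in each treated list. With CST2316S in SUDHL5 the numbers were 0 in DMSO and 5 and 7 after treatment.

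By the gene-end rule no peak lay near PSMA1, PSMA6, PSMB11, PSMF1 or PSMG4 in any list. These were 5 members. For 4 of them peaks lay at a listed start that the windows do not cover. The listed start of PSMA1 lies 15510 bases inside the annotated gene, that of PSMA6 13759 bases and that of PSMG4 4543 bases, so their starts fall outside the windows. Within 1 kb of a listed start, PSMA1 had a peak in 19 lists, PSMA6 in 12 and PSMG4 in 2. PSMF1 and the core chaperone PSMG2 each have 2 listed starts, one at the gene end and one inside the gene. PSMF1 had no gene-end peak, so its start peaks, in 13 lists, lay at the inner start. PSMG2 had a start peak in 19 lists and a gene-end peak in 1. PSMB11, the thymus-specific beta subunit, and PSMA8, the testis-specific alpha subunit, had none at their starts.

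With ab239364 in SUDHL5, CDK9 peaks were listed at more than 2 times as many proteasome genes after CDK-TCIP1 as in either DMSO list. The DMSO lists had a peak at 5 and 14 members (10.0% and 28%), and the treated lists at 31 and 31 (62.0% in both). Over all genes the shares were 3.95% and 13.4% in DMSO and 24% and 24.2% after treatment. Members thus exceeded all genes 2.08 to 2.58 times in each of the 4 lists, before as well as after treatment. Gained here means a peak in each treated list of a set and in none of its DMSO lists, and lost means the opposite. Gained calls numbered 13 members (26%, against a background of 7.57% of all genes) and lost calls 0 (background 0.00998%). Among the 35 members that had no peak in DMSO the gained share was 37.1%, beside 8.77% over all genes that had none.

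The 13 gained members ran through the core and the cap. They were the alpha subunits PSMA2, PSMA3 and PSMA4, the constitutive beta subunits PSMB1, PSMB3 and PSMB6, the immunoproteasome subunits PSMB8 and PSMB10, the ATPases PSMC4 and PSMC6, the 19S scaffold subunit PSMD11, the 19S chaperone PSMD9, and PSMC3IP. PSMB2, PSMB7, PSMC3 and PSME3 had a peak in both DMSO and both treated lists. Among the 11 non-ATPase subunits of the 19S cap, 9 were marked in each treated list, and 5 of the 7 constitutive beta subunits did. The second DMSO list decided part of the count: without it 21 members were gained, and over all genes 3013 in place of 1517. With the 915 top peaks of each list 0 members were gained and 1 was lost, beside 38 and 126 of all genes.

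CST2316S in the same line gave a different picture. The DMSO lists had a peak at 0 members, and the treated lists at 5 and 7 (10.0% and 14%), against 11.1% and 10.4% of all genes. Gained calls numbered 4 members (8.00%, background 6.31%) and lost calls 0 (background 0). The gained members were PSMB8, PSMC6, the 19S subunit PSMD7, and PSMA8 at its far end. This share of members was near that of all genes, while all genes were gained about as often as with ab239364. Without the first treated list 7 members were gained, with peaks of −log10 q of 5 or more 2, and with equal numbers of top peaks 0. Over all genes these 3 numbers were 1639, 1057 and 126, in place of 1265.

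The contrast between the antibodies was also seen among genes with active starts. Of the genes with a Ser5P peak at a listed start in all 6 Ser5P lists, 22 were members and 3913 were genes of any kind. The treated ab239364 lists had a CDK9 start peak at 19 and 18 of those members (86.4% and 81.8%), against 67.6% and 68.9% of all such genes. The treated CST2316S lists in SUDHL5 had one at 3 and 5 (13.6% and 22.7%), against 36.0% and 34.8%. In DMSO the ab239364 lists had one at 3 and 7 (13.6% and 31.8%), against 12.4% and 40.5%. The CST2316S lists in DMSO had one at 0 in both, against 8.43% and 6.87%. So after treatment members lay above the other active genes with ab239364 and below them with CST2316S, in both lists of each. The difference was not tested. The cause of the difference between antibodies was not tested.

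In KARPAS422 the same antibody, CST2316S, had peaks at many members already in DMSO. They numbered 18 and 25 (36.0% and 50.0%) in DMSO and 27 and 23 (54.0% and 46.0%) after treatment, against 15.5% and 18.2% and then 26.7% and 20.4% of all genes. The member counts of the 2 groups overlapped. One member was gained, the beta subunit PSMB4 (2.00%, background 4.38%), and 0 were lost (background 0.629%). Its treated peaks were low in their lists, at ranks 10323 and 8508 by q. Without the second DMSO list 7 members were gained, and without the first treated list 3 and without the second 4. Over all genes these numbers were 1364, 1104 and 1816, in place of 877. Lost members numbered 3 without the first DMSO list, 1 without the second and 2 without the first treated list. Over all genes the lost numbers were 385, 253 and 401, in place of 126. Among the active genes above, 11 and 10 of the 22 members (50.0% and 45.5%) had a start peak in DMSO and 13 and 13 (59.1% in both) after treatment, against 48.2% and 55.3% and then 69.8% and 57.3% of all such genes. Those active genes were set by Ser5P lists of SUDHL5, not of KARPAS422.

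**Figure D2:**
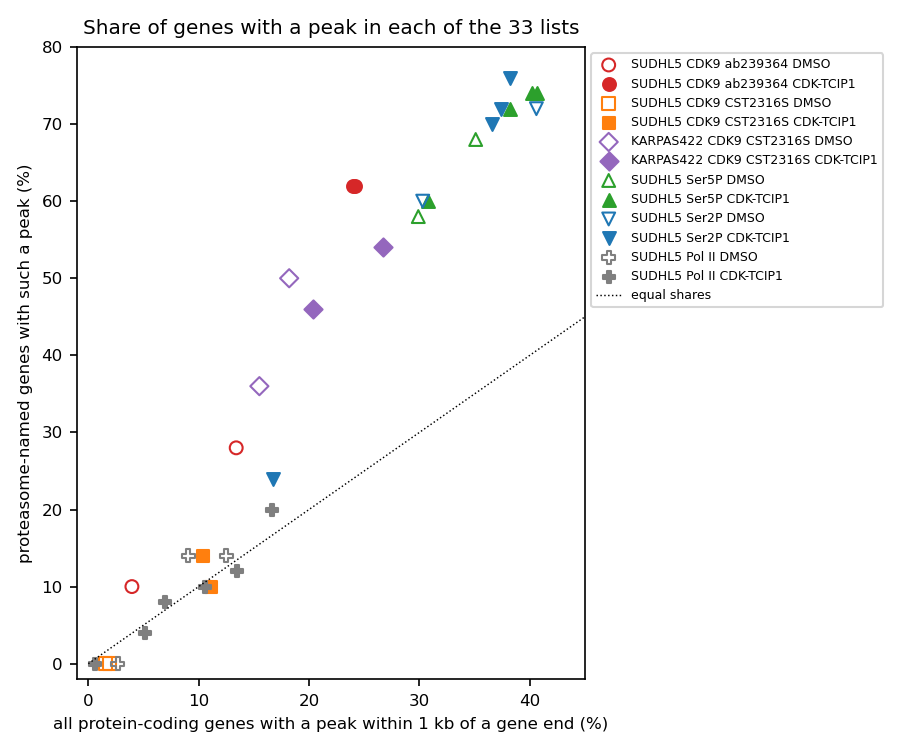
Each point is one of the 33 lists, with the percentage of all protein-coding genes with a peak within 1 kb of a gene end on the x axis and that of the 50 proteasome-named genes on the y axis. Open symbols are DMSO, filled symbols CDK-TCIP1, and the dotted line marks equal shares. The treated CST2316S lists of SUDHL5 lie near the line, at 10.0% and 14%, and the treated ab239364 lists well above it, at 62.0%.

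PSMA1, an alpha subunit of the core, showed CDK9 with both antibodies and in both lines at its start. Its peaks are given by the authors' fold enrichment, a value of the peak within its own list. In KARPAS422 the fold was 3.54 and 6.16 in DMSO and 36.4 and 13.5 after CDK-TCIP1. The rank by q was at 31.1% and 26.1% of the list, counted from the top, in DMSO and at 1.66% and 4.60% after treatment, in lists of different lengths. In SUDHL5, DMSO lists had no CDK9 peak there. The treated lists had one at a fold of 8.10 and 9.50 with CST2316S and of 4.98 and 5.78 with ab239364. Peaks spanned 1.66 and 1.54 kb with CST2316S and 1.11 and 1.12 kb with ab239364. Every treated CDK9 list thus had a peak at the PSMA1 start, and no DMSO list of SUDHL5 did. No end of another protein-coding gene of the table lies near this start. PSMA1 counts as gained in both SUDHL5 sets by the listed-start rule, where 11 of 44 members (25.0%, background 7.89%) were gained with ab239364 and 4 (9.09%, background 6.56%) with CST2316S. In KARPAS422 that rule called 2, PSMB4 and PSMG2 (4.55%, background 4.68%).

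PSMA1 also had both polymerase marks, before and after treatment. Ser5P peaks at its start had folds of 3.06 and 4.11 in DMSO, 5.07 and 5.21 at 2 h, and 5.78 and 6.11 at 4 h. Ser2P folds there were 4.57 and 4.67 in DMSO, 8.79 in the second list at 2 h with none in the short first list, and 5.41 and 7.13 at 4 h.

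PSMC6, an ATPase of the 19S cap, was the member gained by the gene-end rule in both SUDHL5 CDK9 sets and for Ser5P at 2 h and 4 h. CDK9 folds after CDK-TCIP1 were 5.25 and 5.61 with ab239364 and 5.08 and 2.84 with CST2316S, with none in the 4 DMSO lists. Ser5P folds were 3.61 and 5.21 at 2 h and 4.69 and 3.00 at 4 h, with none in DMSO. In KARPAS422 CDK9 lay at PSMC6 in all 4 lists, at folds of 3.12 and 3.66 in DMSO and 4.74 and 3.52 after treatment. The CDK9 summits with ab239364 lay 206 and 170 bases past the start, whereas those with CST2316S in SUDHL5 lay at −728 and −349 bases, before the start. No Ser2P or Pol II peak lay within 1 kb of a gene end of PSMC6. From 1 to 5 kb past its far end, Ser2P peaks lay in both lists of each group. Pol II peaks lay there in 2 lists at 2 h and 1 at 4 h. The far-end window of PSMC6 is shared with STYX.

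PSMB8, the immunoproteasome subunit that replaces PSMB5, was the other member gained in both SUDHL5 CDK9 sets by the gene-end rule. Its folds after CDK-TCIP1 were 3.59 and 3.84 with ab239364 and 2.87 and 3.97 with CST2316S, with none in the 4 DMSO lists. In KARPAS422 peaks at PSMB8 were among the highest of their lists, at ranks 411 and 317 in DMSO and 626 and 421 after treatment, with folds of 5.76, 9.33, 15.1 and 11.6 in that order. Ser5P and Ser2P peaks were present at PSMB8 in all 12 lists of those targets. The PSMB8 windows overlap those of TAP1 and TAP2, which encode the peptide transporter of antigen presentation. An antisense gene also starts within PSMB8, so peaks cannot be assigned to 1 gene there. Windows of 25 of the 50 members are shared with another protein-coding gene.

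PSMD7, a structural partner of PSMD14 in the cap, had CST2316S peaks in SUDHL5 of fold 3.87 and 3.86 after CDK-TCIP1 and none in DMSO. With ab239364 it had 1 DMSO peak of fold 2.34 and treated peaks of 6.60 and 4.19, so it was not called gained there. In KARPAS422 its folds were 5.83 and 8.19 in DMSO and 4.13 and 3.09 after treatment. Within the gene-end windows, PSMA8 had CST2316S peaks at its far end only, in the 2 treated SUDHL5 lists. Their folds were 7.55 and 8.62 and their spans 1.97 and 2.04 kb. Between the start and far end of PSMA8, CDK9 peaks lay in both treated SUDHL5 lists with each antibody. In KARPAS422 they lay there in 1 DMSO list and 2 treated lists.

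The subunits that cut peptides differed from each other. PSMB5, the chymotrypsin-like subunit, had a CDK9 peak in 1 of 2 treated lists with each SUDHL5 antibody, at folds of 3.94 and 3.16, and in all 4 KARPAS422 lists, at 3.11 and 4.13 in DMSO and 4.90 and 3.57 after treatment. PSMB6, the caspase-like subunit, had ab239364 peaks of 4.47 and 5.45 after treatment, none in DMSO, and otherwise 1 Ser2P peak of 4.64 at 4 h. PSMB7, the trypsin-like subunit, had ab239364 peaks of 11.1 and 13.9 in DMSO and 15.3 and 10.1 after treatment, at ranks of 132, 166, 220 and 425 within their lists. PSMB7 shares a window with NEK6. CDK9 at PSMB7 was therefore high in all 4 ab239364 lists, with overlapping groups. With CST2316S, PSMB7 had a peak in 0 SUDHL5 lists, and in KARPAS422 in 1 DMSO list and 0 treated lists.

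PSMB10, the immunoproteasome counterpart of PSMB7, had the widest cover of all members, with a mean of 908 bases of its windows under peaks over the 33 lists, ahead of PSMD9 (901) and PSMD7 (854). Its ab239364 peaks had folds of 4.22 and 2.71 after treatment and none in DMSO. PSMB10 had Ser2P peaks in all 6 lists, of 16.6 and 7.66 in DMSO, 7.74 and 10.7 at 2 h and 10.5 and 7.97 at 4 h, and these groups overlapped. PSMB9, the immunoproteasome counterpart of PSMB6, had Ser2P peaks in both DMSO lists, at 4.62 and 3.24, and in 0 of the 4 treated lists. Counted from the top, those DMSO peaks of PSMB9 ranked by q at 50.7% and 88.1% of their lists. PSMB9 shares a window with TAP1.

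Few members were gained or lost for the polymerase marks by the gene-end rule. Ser5P peaks lay at 36 and 37 members at 2 h and 30 and 37 at 4 h, beside 34 and 29 in DMSO, and Ser2P peaks at 12 and 38 at 2 h and 36 and 35 at 4 h, beside 36 and 30. These groups overlapped except for Ser5P at 2 h, where all genes were also apart, at 38.2% and 40.2% against 35.1% and 29.9% in DMSO. For Ser5P, 4 members were gained at 2 h (8.00%, background 2.73%) and the same 4 at 4 h (8.00%, background 1.40%): PSMC6, PSMD1, PSMD2 and PSME2. No member was lost at 2 h (background 0.260%), and at 4 h PSMB7 and the ubiquitin receptor PSMD4 were (4.00%, background 0.419%). For Ser2P at 2 h, 0 were gained (background 0.165%) and PSMB9 and PSMD4 were lost (4.00%, background 1.72%). For Ser2P at 4 h, PSMD2 and the activator PSME4 were gained (4.00%, background 1.58%) and PSMB9 was lost (2.00%, background 1.03%). For Pol II, 0 members were gained or lost at 2 h (backgrounds 0.170% and 0.00499%) or at 4 h (backgrounds 0 and 0.0299%). The first Pol II DMSO list had a peak at 0 members, so none could be called lost at either time. The first Pol II list at 4 h also had 0, so none could be gained there, and the first at 2 h had 2. The 2 h and 4 h counts share their DMSO lists. Single lists changed these counts.

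For Ser5P, 8 members were gained at each time without the first DMSO list, beside 1553 of all 20037 genes at 2 h and 996 at 4 h. Numbers over all genes follow each count below in brackets. Lost Ser5P members at 2 h numbered 2 without the second DMSO list (277) or the second treated list (172) and 1 without the first treated list (111). At 4 h, 6 lost Ser5P without the second treated list (621). With peaks of −log10 q of 5 or more, Ser5P gains were 1 at 2 h (843) and 2 at 4 h (391). For Ser2P at 2 h, 3 were gained without the short first treated list (705). There 15 were lost without the other treated list (2658) and 4 without the second DMSO list (1416). For Ser2P at 4 h, gains were 6 without the first (1297) and 4 without the second DMSO list (519). Losses were 3 without the second DMSO list (1003) and 2 without either treated list (517 and 426). For Pol II at 4 h, 1 was lost without the first DMSO list (115).

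PSMD2, the large scaffold of the 19S base, had no peak in any DMSO list. Its Ser5P folds were 7.56 and 3.47 at 2 h and 5.38 and 5.58 at 4 h. Its Ser2P folds were 7.56 and 7.45 at 4 h, with 5.99 in the longer list at 2 h. All PSMD2 summits lay before the start, from −371 to −326 bases for Ser5P and from −102 to −34 bases for Ser2P. PSMD2 had no CDK9 peak in any list.

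PSMD1, the other large scaffold of the base, had Ser5P folds of 4.08 and 4.38 at 2 h and 2.92 and 4.90 at 4 h and none in DMSO. PSME2, a subunit of the interferon-induced 11S activator, had 11.8 and 7.81 at 2 h and 4.10 and 6.44 at 4 h and none in DMSO. The best 2 h peaks of PSME2 had summits 4722 and 4671 bases past its start, beyond its far end. Lower Ser5P peaks at 2 h, of fold 5.08 and 6.69, had summits at −566 and −587 bases, before its start. The windows of PSME2 are shared with RNF31 and EMC9. PSME4, the nuclear activator PA200, had Ser2P folds of 6.23 in the longer list at 2 h and of 7.34 and 6.95 at 4 h, with none in DMSO. PSME4 had Ser5P peaks in all 6 lists. PSMD4 had Ser2P folds of 3.29 and 3.87 in DMSO, none at 2 h, and 4.07 and 4.16 at 4 h.

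PSMD14 was the member most often marked by Pol II. Its folds were 5.75 and 5.71 in DMSO replicates 2 and 3, 7.66, 10.2 and 8.35 at 2 h, and 8.56 and 5.78 in replicates 2 and 3 at 4 h. The first DMSO list and the 138-peak list at 4 h had none. Counted from the top, the PSMD14 peaks ranked by q at 56.9% and 54.7% of the list in DMSO, at 39.0%, 19.4% and 23.9% at 2 h, and at 27.6% and 55.2% at 4 h. The 4 h and DMSO placings overlapped.

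Along the genes, Ser2P and Ser5P peaks were listed at the far ends of fewer members, and at the starts of more members in most lists, after CDK-TCIP1. This view used the 38 members, of 13856 genes, with a listed start more than 4 kb from the far end. Far-end Ser2P peaks lay at 13 and 12 members in DMSO, 2 and 5 at 2 h and 5 and 4 at 4 h. In percent this was 34.2 and 31.6, then 5.26 and 13.2, then 13.2 and 10.5, beside 16.8 and 11.9, then 4.37 and 9.70, then 10.0 and 7.35 of all such genes. Both DMSO lists exceeded all 4 treated lists, in members and in all genes. Far-end Ser5P peaks lay at 10 and 5 members in DMSO, 3 and 3 at 2 h and 2 and 2 at 4 h. Over all such genes the Ser5P shares were 10.2% and 6.53% in DMSO, 7.16% and 6.07% at 2 h and 4.80% and 6.34% at 4 h, so those groups overlapped at 2 h. Without the first DMSO list the far-end Ser5P difference in members, treated minus DMSO, was −5.3 percentage points at 2 h in place of −11.8 and −7.9 at 4 h in place of −14.5. Without the second DMSO list it was −18.4 at 2 h.

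Ser5P start peaks lay at 28 and 24 of the 38 members in DMSO, 33 and 33 at 2 h and 29 and 35 at 4 h, and every treated list exceeded both DMSO lists. Ser2P start peaks lay at 26 and 20 in DMSO, 7 and 32 at 2 h and 29 and 30 at 4 h. The short first list at 2 h, with 7, was the exception. Over all such genes, Ser5P start shares were 37.6% and 32.4% in DMSO, 42.5% and 45.3% at 2 h and 34.3% and 45.7% at 4 h. Ser2P start shares over all such genes were 41.7% and 30.6% in DMSO, 16.8% and 41.8% at 2 h and 40.3% and 40.4% at 4 h. For all genes, the first 4 h Ser5P list and both 4 h Ser2P lists were thus below the first DMSO list. Single lists moved the start differences in members. For Ser5P at 4 h the difference of 15.8 percentage points was 7.9 without the second treated list, 23.7 without the first and 10.5 without the second DMSO list. For Ser2P at 4 h the difference of 17.1 was 9.2 without the second DMSO list. For Ser2P at 2 h the difference of −9.2 was 23.7 without the short first treated list, −42.1 without the second, −1.3 without the first DMSO list and −17.1 without the second.

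**Figure D3:**
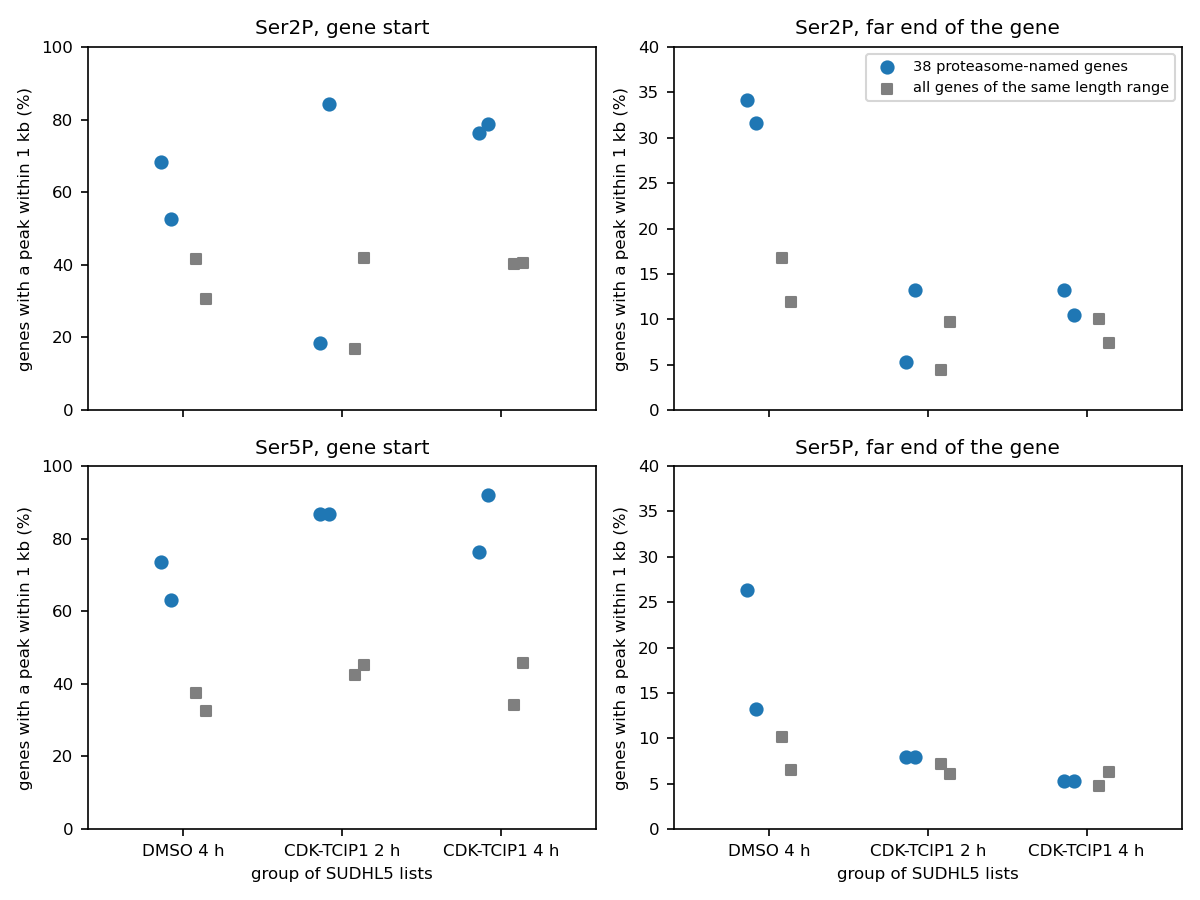
Points give the percentage of genes with a Ser2P (top) or Ser5P (bottom) peak within 1 kb of the start (left) or far end (right) in each SUDHL5 list, for 38 proteasome-named genes (circles) and all 13856 genes with a start more than 4 kb from the far end (squares). The y axes differ between start and far end. Far-end circles lie at 34.2% and 31.6% in DMSO and at 13.2% or less after treatment for Ser2P, and Ser5P start circles lie at 76.3% or more after treatment.

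For Ser2P, list length fell along with the far-end counts. The second DMSO list, with 16593 peaks, had far-end Ser2P peaks at 12 members. The second list at 2 h, with 16170, and the first at 4 h, with 16323, had them at 5 each. Ser5P lists were 0.979 times the DMSO length at 2 h and 0.857 times at 4 h. Whether length accounts for the far-end counts was not tested. Treated Ser2P lists were shorter, at 0.468 times the DMSO length at 2 h and 0.681 times at 4 h (exact two-sided permutation p = 0.33 for both, the smallest possible). On the log2 scale these ratios were −1.09 and −0.55. At 2 h the log2 ratio was −0.44 without the short first treated list, −1.75 without the second and −0.69 without the first DMSO list. At 4 h it was −0.15 without the first DMSO list and −0.96 without the second. Each list was also cut to an equal number of top peaks. Far-end Ser2P peaks then lay at 3 and 5 of the 38 members in DMSO and 2 and 1 at 2 h. Over all genes of the same view the shares were 7.22% and 6.69%, then 4.37% and 4.86%. In the set cut for 4 h, far-end Ser2P peaks lay at 5 and 12 members in DMSO and 4 and 4 after treatment. The shares over all genes there were 11.3% and 10.6%, then 8.84% and 7.35%. The order of the groups held in members and in all genes, and the gap was smaller in both. For Ser5P at equal numbers, 3 and 5 in DMSO stood beside 3 and 3 at 2 h and 2 and 2 at 4 h. The shares over all genes were 7.44% and 6.53% in DMSO against 5.61% and 5.43% at 2 h. In the set cut for 4 h those shares were 6.98% and 6.07% against 4.80% and 4.86%. With −log10 q of 5 or more the Ser5P far-end difference turned to 1.3 percentage points above DMSO at both times. Over all genes it was −0.9 at 2 h and −1.6 at 4 h. Start peaks at equal numbers lay at 25 and 24 members in DMSO and 31 and 31 at 2 h for Ser5P. The shares over all genes were 32.3% and 32.4%, then 39.9% and 43.9%. For Ser2P, start peaks at equal numbers lay at 19 and 15 members in DMSO and 29 and 30 at 4 h. The shares over all genes were 29.9% and 28.1%, then 38.4% and 40.4%.

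The members that lost far-end Ser2P at 2 h were PSMB2, PSMB3, PSMC1, PSMC5, PSMD3, PSMD7 and PSMD11, 7 of 38 against a background of 2.63%. At 4 h they were PSMB2, PSMB3, PSMC5, PSMD3 and PSMD7, against 2.07%. PSMB2 and PSMA3 lost far-end Ser5P at both times (backgrounds 0.751% and 1.08%). At PSMD7 the best Ser2P summit lay 10678 and 9404 bases past the start in DMSO, close to the far end of this gene of 9475 bases. After treatment it lay within 263 bases of the start in all 4 lists. Ser2P start peaks were also listed at PSMD7 in both DMSO lists, at folds of 7.99 and 4.94. Treated folds at the start were 6.63 and 8.88 at 2 h and 5.39 and 5.30 at 4 h. The ATPase PSMC3 and the chaperone PSMD9 were the exceptions that kept a far-end Ser2P peak in all 6 lists. PSMD9 shares its windows with CFAP251 and HPD. No member gained a far-end peak of Ser2P (backgrounds 0.00722% at 2 h and 0.0794% at 4 h) or of Ser5P (0.231% and 0.101%).

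Far-end peaks of CDK9 and Pol II were few in members and in all genes. No Pol II list had one at any of the 38 members, against 0.0217% to 1.06% of all such genes, and CDK9 lists had one at 0 to 2 members, against 0.130% to 2.52%. Between the start and the far end, the treated CST2316S lists had peaks at 4 and 4 members in SUDHL5 and at 9 and 3 in KARPAS422. In SUDHL5 this was 10.5% in both lists, against 12.8% and 13.1% of all such genes. In KARPAS422 it was 23.7% and 7.89%, against 20.2% and 14.6%. At the start, the treated SUDHL5 lists had one at 4 and 6 members (10.5% and 15.8%), against 12.4% and 11.7%. Best-peak summits over the lists of a group had a median of 37 bases past the nearest listed start with ab239364 after treatment, from 58 peaks at 34 members. In KARPAS422 the median was 238 bases past it in DMSO, from 42 peaks, and 188 after treatment, from 50. With CST2316S in treated SUDHL5 the 12 peaks had a median of 118 and quartiles of −264 and 316 bases. Members' CST2316S peaks in treated SUDHL5 were low in their lists, at a median rank of 69.8% and 55.1% of the list, against 46.7% and 45.5% for all genes with a start peak. They were also narrower, with median spans of 0.540 and 0.552 kb against 0.941 and 1.02 kb.

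**Figure D4:**
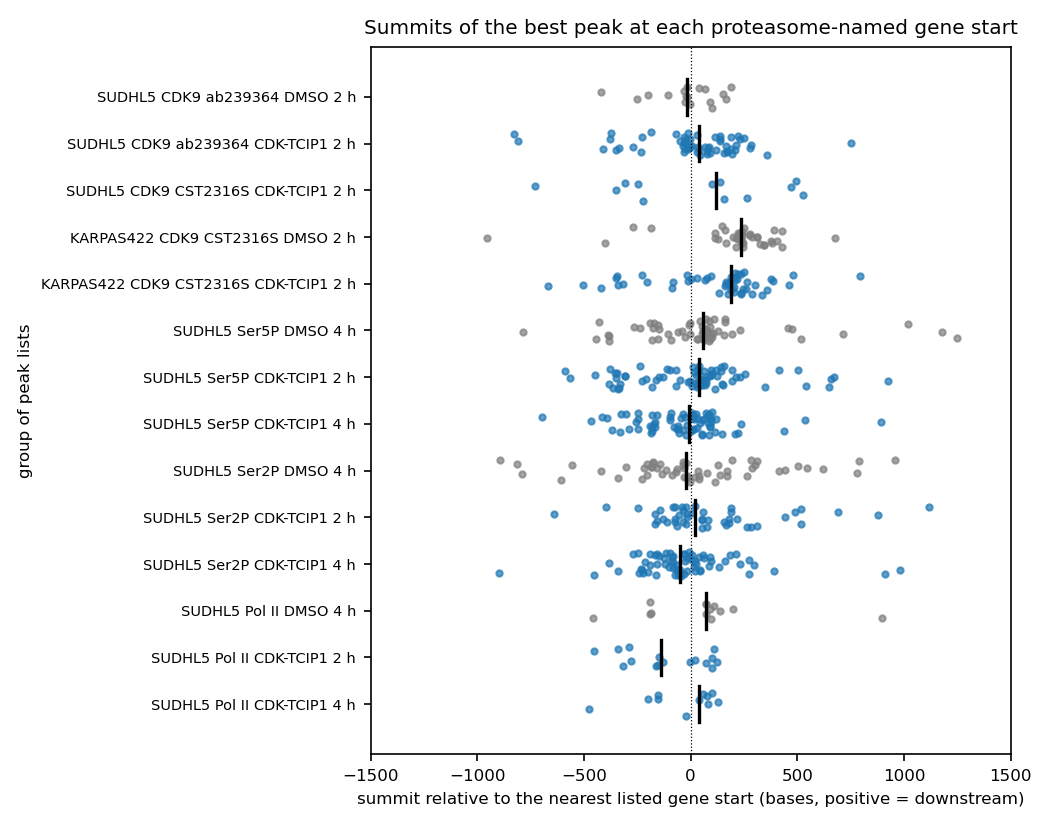
Each point is the summit of the best peak at a proteasome-named gene start in one list, placed by its distance in bases from the nearest listed start, positive downstream. Rows are groups, DMSO in grey and CDK-TCIP1 in blue, and black bars are medians; CST2316S DMSO in SUDHL5 had no peak and is not drawn. In KARPAS422 DMSO most summits lie just downstream of the start, with a median of 238 bases.

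Other genes of the pathway were counted from a list of 30, with ubiquitin genes, shuttle factors, assembly factors and regulators. With ab239364 4 were gained (13.3%, background 7.57%): the protease DDI2, the unfoldase VCP, the ubiquitin fusion gene RPS27A, and TAP1. With CST2316S in SUDHL5, where the background was 6.31%, the gained genes included NFE2L1, which encodes an activator of proteasome genes, the shuttle factor genes RAD23B and UBQLN1, the ubiquitin genes UBB and RPS27A, and the proteasome-binding stress gene ZFAND2A. In KARPAS422 3 were gained (10.0%, background 4.38%): UBB, ZFAND2A and the 19S subunit gene SEM1. No gene of the 30 was lost in a CDK9 set, and 0 were gained or lost in the 6 polymerase comparisons. At UBB and ZFAND2A, CST2316S peaks lay in both treated lists and no DMSO list in both lines. With ab239364, DMSO lists of SUDHL5 already had peaks at ZFAND2A, RAD23B and UBQLN1 (2 lists each). They also had peaks at UBB and NFE2L1 (1 list each) and none at RPS27A.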

How the data were processed

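Peak lists of 33 ChIP-seq libraries were used, and 10 input libraries were not analysed here. The submitters' processing notes name MACS2 and Bowtie2 among other tools, without versions or settings, with the builds hg38 and dm6. CDK9 samples had Drosophila chromatin added, per the labels' protocol, which was not used for scaling here. For CDK9 in DMSO the labels' time of 2 h was used, where file names differ. The deposited lists give each peak's fold (a ratio to its own background), the authors' −log10 p and −log10 q, and a score, which was not used. Fold and q were used only within a list. Read totals are unknown, so no counting error is given, and a missing peak is not absence of binding.

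Peaks were intersected with RefSeq gene ends and listed starts (read from promoter sequences that run from 250 bases before to 50 after each start) in Python 3.11.15 with pandas 2.3.3, and an exact two-sided permutation test compared list lengths. Gained and lost calls have no test. The code for overlaps and calls was checked on planted peaks. Same-numbered Pol II lists deviated together at 2 h (correlations 0.42, 0.29 and 0.11), so numbers pair them there. At 4 h the correlations were 0.52, 0.34 and 0.06, and the third pair does not reach 0.1. One result of the list of other pathway genes is not reported here. Members, gene lists and tests were chosen with earlier results of these data known. Genes named in full were the catalytic subunits, members gained in at least 2 CDK9 sets or changed in a polymerase comparison, those in every list or none, and the 3 widest. The views along genes, listed starts as a rule of their own, and the printed PSMA1, PSMD7, PSMD14 and PSMA8 were picked once values had been seen. The alternatives tried were a stricter q (5 or more), equal numbers of top peaks, a 2.5 kb window, summits, starts only, gene bodies with 2 kb for Ser2P, the replicate block and leaving out lists.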

Additional observations from a re-analysis of the deposited data

How the results depend on the processing

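Counts of gained and lost members rest on 2 or 3 lists a group and on list length, and none has a test. For CDK9 ab239364 13 gained became 0 with equal numbers of top peaks, where 1 was lost, and 14 to 21 when 1 list was left out. For CST2316S in SUDHL5 4 gained became 2 at −log10 q of 5 or more, 0 with equal top peaks and 4 to 7 when 1 list was left out. In KARPAS422 1 gained became 2 at the stricter q and at starts only, 3 with the 2.5 kb window and 0 with equal top peaks, where 3 were lost. Leaving out 1 list there gave 1 to 7 gained and 0 to 3 lost. Over all genes the gained numbers moved too when 1 list was left out. They were 1554 to 3013 with ab239364, 1341 to 1774 with CST2316S in SUDHL5 and 1104 to 1816 in KARPAS422.

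For Ser2P at 2 h, 2 lost became 4 at the stricter q, and 1 with equal top peaks or starts only; leaving out 1 list gave 0 to 3 gained and 2 to 15 lost. For Ser2P at 4 h, 2 gained became 4 with equal top peaks and 1 lost became 0 there and at the stricter q. Leaving out 1 list at 4 h gave 2 to 6 gained and 1 to 3 lost. Over all genes, leaving out 1 list gave 56 to 705 gained and 376 to 2658 lost for Ser2P at 2 h. At 4 h the numbers over all genes were 519 to 1297 gained and 310 to 1003 lost. For Ser5P, 4 gained became 1 (2 h) and 2 (4 h) at the stricter q and 2 at both times with the 2.5 kb window, and 2 lost at 4 h became 0 at the stricter q, with equal top peaks and at starts only, and 1 with the wider window. Leaving out 1 list gave 4 to 8 gained at both times, 0 to 2 lost at 2 h and 2 to 6 at 4 h. Over all genes these Ser5P numbers were 850 to 1553 gained and 111 to 277 lost at 2 h. At 4 h they were 357 to 1173 gained and 122 to 621 lost. For Pol II leaving out 1 list gave 0 gained at both times, 0 lost at 2 h and 0 to 1 lost at 4 h. Over gene bodies Ser2P gave 0 gained and 2 lost at 2 h (0 to 3 and 2 to 18 when 1 list was left out) and 2 gained and 1 lost at 4 h (2 to 6 and 1 to 2), with 4 gained and 0 lost at the stricter q.

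The difference in the percentage of members with a start peak, treated minus DMSO, was −9.2 for Ser2P at 2 h, 11.8 with equal top peaks and −42.1 to 23.7 when 1 list was left out. It was 17.1 at 4 h (32.9 with equal top peaks, 30.3 at the stricter q, 9.2 to 25.0 when 1 list was left out). For Ser5P it was 18.4 at 2 h (13.2 to 23.7) and 15.8 at 4 h (7.9 to 23.7). The far-end difference for Ser2P was −23.7 at 2 h (−6.6 with equal top peaks and −7.9 at the stricter q) and −21.1 at 4 h (−11.8 and −7.9). For Ser5P the far-end difference of −11.8 at 2 h and −14.5 at 4 h became 1.3 at both times at the stricter q, the reverse sign, and was −18.4 to −5.3 and −21.1 to −7.9 when 1 list was left out. The cause was not tested.

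The log2 ratio of list lengths was 2.5, 2.79 and 0.76 for the CDK9 sets, −1.09 and −0.55 for Ser2P, −0.03 and −0.22 for Ser5P and 0.44 and −0.92 for Pol II. With groups of equal size the replicate block cannot change this ratio and can alter only its p. The same holds for crossed pairing for Ser2P at 2 h, which gave −1.09, where same-numbered lists correlated at −0.12. For Pol II the 3 pairs went one way at each time, with a blocked exact permutation p of 0.250, the smallest possible. Leaving out 1 list breaks a pair. Gained and lost calls do not use pairs. The ratio reversed to 0.22 at the stricter q for Ser5P at 2 h. Leaving out 1 list gave 1.53 to 3.47 for ab239364, 2.62 to 2.97 for CST2316S in SUDHL5, 0.51 to 1.01 in KARPAS422, −1.75 to −0.44 for Ser2P at 2 h, −0.96 to −0.15 at 4 h, −0.33 to 0.27 for Ser5P at 2 h, −0.52 to 0.07 at 4 h, −0.18 to 0.91 for Pol II at 2 h and −1.84 to 0.43 at 4 h.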
